A study of Rattus norvegicus with 18 samples.

Results

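The genes described here encode the collagens, the laminin chains and the integrin subunits, with a few proteins that bind integrins. They were taken by gene symbol from a rat Affymetrix array table. Every symbol made of Col, a number, a and a number, or beginning with Lam and a chain letter and number, or with Itga or Itgb, was included, which gave 62 of the 11018 genes with 1 symbol. Of these, 33 were collagens, 8 laminin chains and 17 integrin subunits. The other 4 (Itgb1bp1, Itgb1bp2, Itgb3bp and Itgbl1) matched by name only and are not integrin subunits. The rule reads the symbol and no measured value.

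The arrays compared liver sinusoidal endothelial cells (LSEC), which line the fenestrated capillaries of the liver, with lung microvascular endothelial cells (LMEC), which line continuous capillaries. Both were isolated from rats by enzymatic digestion of the organ, a density gradient and magnetic sorting. The groups of freshly isolated cells, LSEC_0h from liver and LMEC_0h from lung, hold 5 arrays each. LSEC kept on collagen-coated dishes make up LSEC_2h, harvested at 2 h, and LSEC_42h, harvested at 42 h, with 4 arrays each. No group carries a genetic change or an added drug in the labels, and the labels give no strain, sex or age. The coating is itself a collagen, so both cultured groups met a collagen surface that the fresh groups did not. The labels do not say whether the arrays of a group came from different animals. The p-values therefore speak only of the variation among these samples, part or all of which may be technical.

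Basement membranes are thin sheets of matrix under endothelium and epithelium, built on a network of type IV collagen and a network of laminins, each laminin being a trimer of an alpha, a beta and a gamma chain. Cells hold to them through integrins, pairs of an alpha and a beta subunit, with Itgb1 the partner of most alpha subunits that bind collagen, laminin or fibronectin. Liver sinusoids are known for a sparse, discontinuous matrix in the space of Disse, whereas lung capillaries share a continuous basement membrane with the alveolar epithelium, next to fibroblasts that make fibrillar collagens.

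Values are log2 expression of 1 probe set per gene, as deposited. They ran from 5.11 to 13.69 over the table, and the median of all gene probe sets was 7.15. Values of different genes come from different probes, so levels are compared only within a gene. Of the 62 members, 37 had a mean above that median in at least 1 group, 11 in all 4 groups, and 25 in no group. The highest mean among 24 probe sets for bacterial control transcripts in the fresh LSEC arrays, 6.26, was taken as the level of a probe set without a target, and 6.21 was that level in LMEC_0h. At or under it lay 17 members in LSEC_0h, 9 in LSEC_2h, 17 in LSEC_42h and 9 in LMEC_0h. Where the lower group of a called gene was at this level, the fold is given as a lower bound against 6.26.

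Some features of the libraries bear on all comparisons of cultured with fresh cells. The 24 bacterial control probe sets averaged 5.66 to 5.74 on the fresh arrays but 7.62 to 8.37 on the 2 h and 7.68 to 7.86 on the 42 h arrays, so the cultured samples carried control transcripts that the fresh ones did not, and culture and labelling cannot be told apart. The 3′ minus 5′ difference of the actin control probe sets was 0.91 to 1.34 on the fresh arrays, 1.63 to 1.69 at 2 h and 1.81 to 1.89 at 42 h. That of the GAPDH control probe sets did not rise in culture. It was 0.29 to 0.84 in LSEC_0h, 0.34 to 0.74 in LMEC_0h, 0.29 to 0.41 at 2 h and 0.31 to 0.39 at 42 h. Pan-endothelial markers were bright in every group but fell in culture: array means over 9 genes were 11.14 to 11.36 in LSEC_0h, 10.16 to 10.49 in LSEC_2h, 9.98 to 10.64 in LSEC_42h and 10.96 to 11.33 in LMEC_0h. Against LSEC_0h, 7 of the 9 were lower and 1 higher at 2 h (median log2 difference -1.12), 8 were lower at 42 h (median -0.69), and 2 were lower in lung. Of all genes, 32.7% were called lower and 41.4% higher at 2 h, 20.8% lower at 42 h and 27.7% lower in lung. Array means of 10 hepatocyte markers were 8.12 to 9.55 in LSEC_0h, 6.95 to 10.09 in LSEC_2h (array 6 highest), 6.23 to 6.33 in LSEC_42h and 6.34 to 6.46 in LMEC_0h. Of these, 9 were lower in lung (median -2.46), 1 at 2 h and 10 at 42 h (median -2.48), and 7 lay at the control level in lung and 4 at 42 h. Of 8 macrophage markers, highest in LSEC_0h array 15, 7 were lower in lung, 7 at 2 h and 8 at 42 h. The part of these features in the results below was not tested. In bulk samples such as these, fewer cells of a type and less RNA per cell cannot be told apart.

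The type IV collagen pair and the laminin chains Lamc1 and Lama4 fell together in early culture, and Col1a2 the organ difference in fibrillar collagen, so their promoter sequences are shown. Promoter windows from 250 bases before to 50 bases after the gene start were taken from RefSeq (GRCr8), where 51 of the 62 members had one. Col4a1 lies at chr16:84885347-84885646 on the plus strand and Col4a2 at chr16:84885471-84885770 on the minus strand. The genes start 77 bases apart and run away from each other, and the windows share 176 bases, read on opposite strands. Lamc1 lies at chr13:68051937-68052236 on the minus strand, Lama4 at chr20:43946648-43946947 on the plus strand and Col1a2 at chr4:33518307-33518606 on the plus strand. Capitals mark a CCAAT box (CCAAT, or ATTGG on the other strand), a GC box (GGGCGG, or CCGCCC) or a TATA box (TATAAA, or TTTATA).
Col4a1: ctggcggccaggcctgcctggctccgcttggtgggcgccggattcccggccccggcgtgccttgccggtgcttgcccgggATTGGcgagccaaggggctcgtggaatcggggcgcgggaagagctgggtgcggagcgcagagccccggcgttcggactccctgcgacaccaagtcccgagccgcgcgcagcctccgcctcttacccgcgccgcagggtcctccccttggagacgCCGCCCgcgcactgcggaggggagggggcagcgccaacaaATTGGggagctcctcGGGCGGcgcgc
Col4a2: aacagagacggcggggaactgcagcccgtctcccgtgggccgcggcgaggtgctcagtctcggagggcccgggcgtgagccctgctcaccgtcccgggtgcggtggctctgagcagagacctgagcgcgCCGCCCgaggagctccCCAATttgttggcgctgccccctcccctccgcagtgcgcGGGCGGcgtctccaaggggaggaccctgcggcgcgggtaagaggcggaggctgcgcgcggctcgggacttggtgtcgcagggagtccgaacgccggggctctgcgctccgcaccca
Lamc1: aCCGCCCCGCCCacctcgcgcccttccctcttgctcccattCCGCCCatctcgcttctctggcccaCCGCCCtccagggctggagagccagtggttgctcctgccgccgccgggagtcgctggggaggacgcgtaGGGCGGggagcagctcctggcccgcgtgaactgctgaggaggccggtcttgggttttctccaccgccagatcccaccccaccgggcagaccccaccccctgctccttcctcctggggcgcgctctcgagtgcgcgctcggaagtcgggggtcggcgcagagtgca
Lama4: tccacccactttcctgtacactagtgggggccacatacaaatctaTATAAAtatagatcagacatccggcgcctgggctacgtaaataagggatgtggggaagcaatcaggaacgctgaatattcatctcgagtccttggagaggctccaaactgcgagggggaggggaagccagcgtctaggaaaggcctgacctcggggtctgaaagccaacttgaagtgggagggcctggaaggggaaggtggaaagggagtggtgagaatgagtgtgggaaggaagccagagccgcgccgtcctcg
Col1a2: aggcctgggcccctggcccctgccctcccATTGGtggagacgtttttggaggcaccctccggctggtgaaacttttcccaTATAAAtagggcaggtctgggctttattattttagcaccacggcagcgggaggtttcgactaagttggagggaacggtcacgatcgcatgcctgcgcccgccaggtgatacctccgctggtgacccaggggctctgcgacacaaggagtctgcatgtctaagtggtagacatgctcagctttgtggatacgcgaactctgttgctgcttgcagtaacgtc

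The letters of a CCAAT box were present in 37.5% of all 33469 promoter windows, those of a GC box in 33.1% and those of a TATA box in 14.2%. Among the 51 members with a window, 13 held the CCAAT box, 27 the GC box and 6 the TATA box. The Col4a1 and Col4a2 windows held CCAAT and GC boxes and no TATA box, with a GC content of 75.0% and 73.7%. In Col4a1 the CCAAT letters stood at -170 to -166 and 24 to 28 from the gene start. The second of these lies in the shared stretch and is the box at -105 to -101 of Col4a2, read from the other strand. Lamc1 held 5 GC boxes, the first 2 overlapping by 1 base, and neither of the other motifs. Lama4 held 1 TATA box, at -205 to -200. Col1a2 held a CCAAT box at -221 to -217 and a TATA box at -170 to -165. These matches describe letters in a window and are not measurements of binding.

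The organ comparison asked how fresh lung and fresh liver endothelial cells differ. Most of the members that differed were higher in lung: 33 of 62 were called higher in LMEC_0h, where 19.8% of all genes were, and 8 lower, where 27.7% of all genes were. The 8 lower members were Col13a1, Col22a1, Lama4, Lamc1, Itga1, Itga9, Itga2b and Itgb1bp2. A call here means an adjusted p below 0.05 from limma, fitted over all 18 arrays. At least 2-fold higher were 18 members (background 5.9%) and at least 2-fold lower 4 (background 3.98%). The groups did not overlap for 37 members, against 38.7% of all genes. The members' median log2 difference was 0.28, and that of all genes -0.04. In level, 17 members (27.4%) lay above the table's median in LSEC_0h and 33 (53.2%) in LMEC_0h, where the shares over all genes were 51.1% and 51.0%. Without the dim genes, those above their array's median on fewer than 4 arrays, 21 of 36 members were called higher, as were 1497 of the 6796 genes kept, and 6 lower, as were 2270 of the genes kept.

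**Figure D1:**
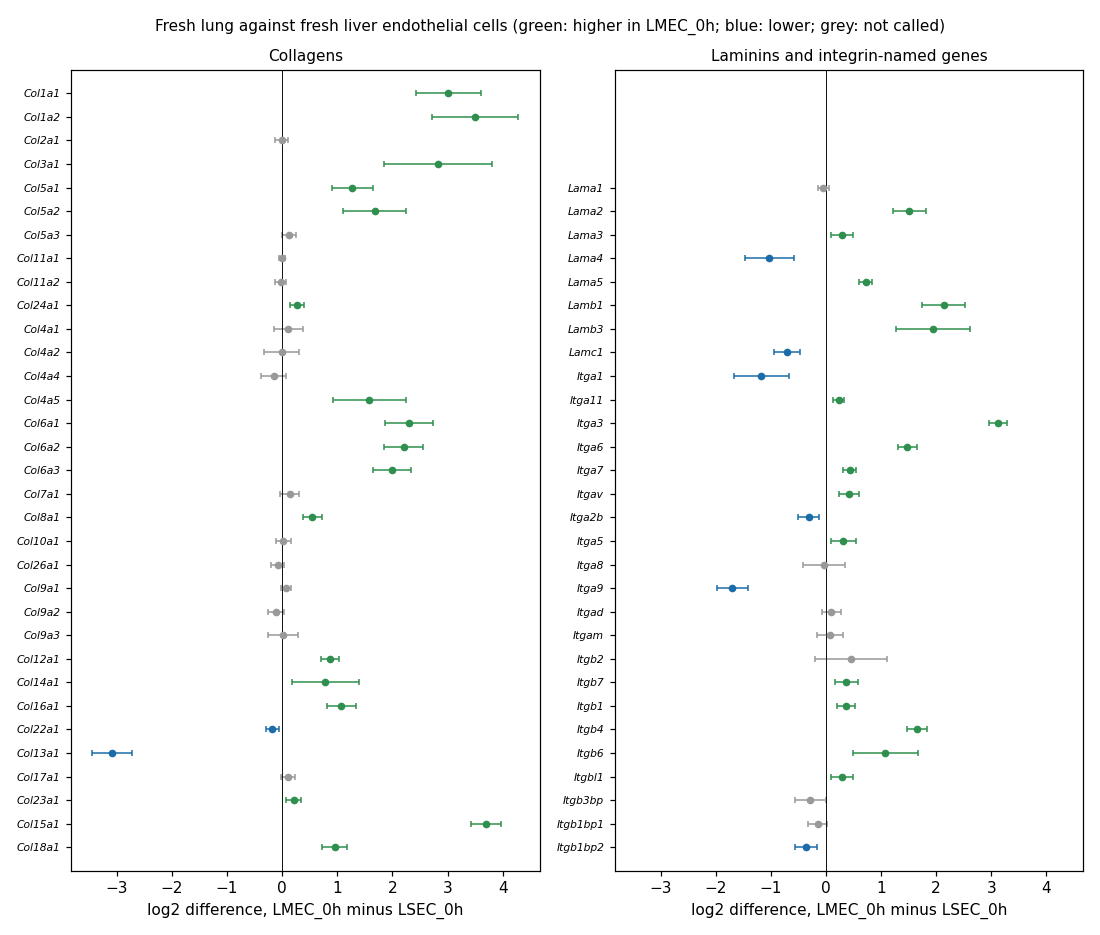
Log2 difference between LMEC_0h and LSEC_0h (x axis) for each of the 62 members (rows), as the fitted difference of 5 against 5 arrays with its 95% confidence interval. Green points were called higher in LMEC_0h (33), blue points lower (8) and grey points were not called (21); fibrillar and type VI collagens, Col15a1 and Itga3 stand far to the right, Col13a1 far to the left and Col4a1 and Col4a2 at 0.

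The culture comparisons asked how LSEC change on the dish. After 2 h, 32 of 62 members were called higher than in LSEC_0h, where 41.4% of all genes were, and 9 lower, where 32.7% were. The 9 lower members were Col4a1, Col4a2, Lama4, Lamc1, Itga5, Itga9, Itgb1, Itgb3bp and Itgb1bp1. Few of the rises were large: 2 members were at least 2-fold higher (background 5.69%) and 5 at least 2-fold lower (background 7.26%). Groups did not overlap for 37 members, against 66.3% of all genes. The members' median was 0.26 and that of all genes 0.08. The rises at 2 h were mainly of dim genes. Without these, 11 of 36 members were called higher (1842 of the 6796 genes kept) and 9 lower (3261 of the genes kept). After quantile normalization of all arrays, 20 of 62 members were called higher. At that setting 6973 of the 11018 genes were called, 48.0% of them higher, and 32 members were called, 62.5% of them higher.

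After 42 h, 5 members were called higher than in LSEC_0h (background 29.7%) and 13 lower (background 20.8%). The 5 higher members were Col7a1, Col8a1, Col9a1, Itgb3bp and Itgb1bp1. Of these, Col9a1 lay at the control level in both groups. Col7a1 and Col8a1 averaged 6.48 and 6.61 at 42 h, under the table's median, and lost their calls after quantile normalization. The lower members included Col4a2, Col3a1, Col13a1, Itga1, Itga5 and Itga9. At least 2-fold apart were 1 higher (background 4.12%) and 6 lower (background 5.39%), and groups did not overlap for 20 members (background 48.7%). The members' median was -0.02, against 0.05 over all genes. Between the cultured groups, 6 members were called higher at 42 h than at 2 h (background 33.1%) and 38 lower (background 38.9%). At least 2-fold apart were 5 higher (background 8.79%) and 8 lower (background 5.61%), with no overlap for 41 members (background 64.4%). The members' median was -0.35, against -0.08 over all genes. Both culture times and the lung cells were compared with the same 5 LSEC_0h arrays, so these comparisons are not independent of each other.

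Of the type IV collagens, Col4a1 and Col4a2 were bright in every group and did not pass the test between the organs, but both fell after 2 h of culture. They encode the chains of the common type IV trimer of vascular basement membranes. In array order, Col4a1 read 11.76, 11.87, 11.69, 11.84 and 12.004 in LSEC_0h, 10.77, 10.19, 10.77 and 10.57 in LSEC_2h, 11.52, 11.59, 11.84 and 11.68 in LSEC_42h, and 11.99, 12.25, 11.62, 11.81 and 12.04 in LMEC_0h. All 2 h arrays lay below every other array, and the other 3 groups overlapped. Col4a1 was 2.39-fold lower at 2 h than in LSEC_0h (SE 0.13 on the log2 scale, adjusted p = 2.55e-07) and 2.12-fold higher at 42 h than at 2 h (adjusted p = 2.96e-06). At 42 h it averaged 11.66 ± 0.14 (SD, n = 4), against 11.83 ± 0.12 (SD, n = 5) in LSEC_0h (adjusted p = 0.289 in limma). The log2 difference of Col4a1 at 2 h, -1.26, stood beside the median of -1.12 for the pan-endothelial markers, and those of Col4a2, Lamc1 and Lama4 were -1.87, -1.25 and -0.79; the part of the marker fall was not tested.

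Col4a2 did not come back in the same way. It read 11.21, 11.29, 11.20, 11.75 and 11.60 in LSEC_0h, 9.89, 9.35, 9.64 and 9.27 in LSEC_2h, 10.13, 9.66, 9.89 and 10.20 in LSEC_42h, and 11.21, 11.67, 11.25, 11.30 and 11.60 in LMEC_0h. Both cultured groups lay below both fresh groups without overlap, and the cultured groups overlapped each other. Col4a2 was 3.67-fold lower at 2 h (SE 0.16 on the log2 scale, adjusted p = 2.15e-08) and 2.72-fold lower at 42 h (SE 0.16, adjusted p = 8.74e-07). The rise of 1.35-fold from 2 h to 42 h (adjusted p = 0.0285) lost its call after quantile normalization and without any 1 of LSEC_2h arrays 5 and 7 and LSEC_42h arrays 1 and 12.

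The difference between the paired genes was therefore taken within each array, a measure chosen after the values were seen. Col4a1 minus Col4a2 was 0.42 ± 0.20 (SD, n = 5) in LSEC_0h, 1.04 ± 0.22 (SD, n = 4) in LSEC_2h, 1.69 ± 0.29 (SD, n = 4) in LSEC_42h and 0.53 ± 0.16 (SD, n = 5) in LMEC_0h. The 3 LSEC groups did not overlap, from 0.09 to 0.58 fresh, 0.84 to 1.30 at 2 h and 1.39 to 1.95 at 42 h. Two-sided exact permutation tests over arrays gave p = 0.0159 for each cultured group against LSEC_0h and p = 0.0286 between the cultured groups, each the smallest p these group sizes allow, and p = 0.405 between the organs. Adjusted over these 4 tests, the values were 0.0318, 0.0318, 0.0381 and 0.405. As the measure was chosen from these same values, the p-values describe the separation and are no independent test of it. The measure shows that the probe sets of a gene pair with a shared promoter region changed unequally. On these arrays the 3′ minus 5′ difference of actin also rose from 0 h to 42 h, while that of GAPDH did not. The part of this feature was not tested.

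Col4a5, a chain of the type IV networks of alveoli and kidney, was the type IV gene that differed between the organs. It read 7.43, 7.41, 7.95, 7.25 and 8.79 in LSEC_0h and 10.02, 9.06, 10.22, 8.46 and 8.97 in LMEC_0h. Lung was higher by 2.99-fold (adjusted p = 0.00047), although LSEC_0h array 17 exceeded LMEC_0h array 21. In culture Col4a5 read 8.02, 7.68, 7.62 and 7.38 at 2 h and 6.50, 6.46, 6.74 and 7.02 at 42 h, and the 42 h arrays lay below all others. It was 2.12-fold lower at 42 h than in LSEC_0h (adjusted p = 0.0119) and 1.99-fold lower than at 2 h (adjusted p = 0.0182, lost without LSEC_2h array 4). Col4a4 was dim in every group, with means of 6.12 to 6.57.

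**Figure D2:**
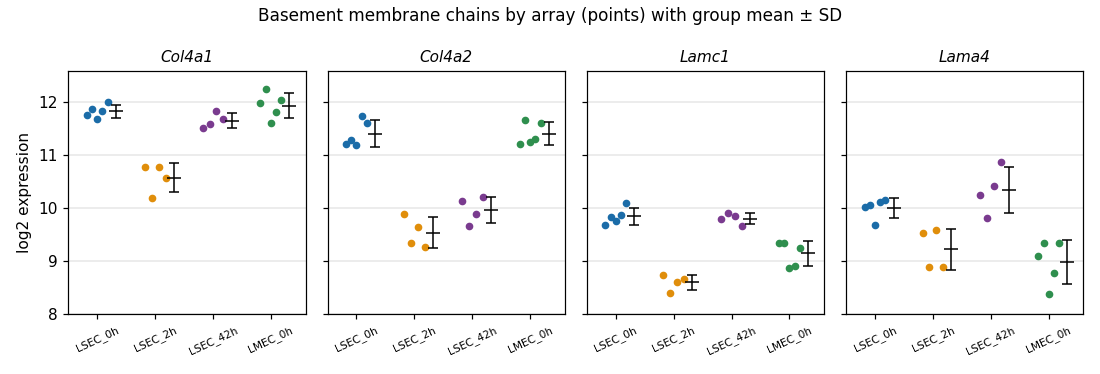
Log2 expression (y axis) of Col4a1, Col4a2, Lamc1 and Lama4 in each array (points) by group, with the group mean ± SD beside the points (n = 5 for LSEC_0h and LMEC_0h, 4 for LSEC_2h and LSEC_42h). All 4 genes fell at 2 h; at 42 h Col4a1, Lamc1 and Lama4 averaged 11.66, 9.80 and 10.34, and Col4a2 averaged 9.97 against 11.41 in LSEC_0h.

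Of the laminin chains, Lamc1 and Lama4 were higher in fresh liver cells and Lamb1, Lamb3, Lama2, Lama3 and Lama5 in lung. Lamc1, the gamma chain shared by most laminins, read 9.68, 9.83, 9.75, 9.87 and 10.10 in LSEC_0h, 8.74, 8.39, 8.59 and 8.65 in LSEC_2h, 9.80, 9.90, 9.84 and 9.66 in LSEC_42h, and 9.35, 9.33, 8.87, 8.91 and 9.25 in LMEC_0h. The 2 h arrays were lowest, lung came next without overlap, and fresh and 42 h liver cells overlapped. Lamc1 was 2.38-fold lower at 2 h (SE 0.12 on the log2 scale, adjusted p = 6.17e-08), 2.31-fold higher at 42 h than at 2 h (adjusted p = 1.91e-07), and 1.63-fold lower in lung than in liver (adjusted p = 3.95e-05). The 42 h mean of 9.80 ± 0.10 (SD, n = 4) and the fresh mean of 9.85 ± 0.16 (SD, n = 5) had an adjusted p of 0.776 in limma.

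Lama4, the alpha chain typical of endothelial laminin, followed the same course. It read 10.03, 10.05, 9.68, 10.12 and 10.15 in LSEC_0h, 9.52, 8.89, 9.58 and 8.88 in LSEC_2h, 10.25, 9.82, 10.42 and 10.86 in LSEC_42h, and 9.09, 9.34, 8.37, 8.78 and 9.34 in LMEC_0h. LSEC_2h and LMEC_0h each lay below LSEC_0h without overlap, whereas LSEC_0h and LSEC_42h overlapped. Lama4 was 1.73-fold lower at 2 h than in LSEC_0h (adjusted p = 0.00422), 2.17-fold higher at 42 h than at 2 h (adjusted p = 0.000442) and 2.03-fold lower in lung than in liver (SE 0.21 on the log2 scale, adjusted p = 0.000627).

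Lamb1, the beta chain that joins Lamc1 in vascular laminins, was near the control level in liver cells. It read 5.96, 6.13, 6.01, 6.45 and 6.27 in LSEC_0h, 6.40, 6.16, 6.99 and 6.09 in LSEC_2h, 6.20, 6.31, 6.12 and 6.62 in LSEC_42h, and 8.36, 8.36, 7.89, 8.01 and 8.92 in LMEC_0h. Only the lung arrays stood clear of the others, at least 4.14-fold higher than LSEC_0h (adjusted p = 3.09e-08). No culture comparison called Lamb1. Lamb2, which could take its place in the trimer, was not analysed here.

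Lama5, the other main vascular alpha chain, read 6.42, 6.36, 6.43, 6.28 and 6.38 in LSEC_0h and 7.19, 7.21, 7.02, 6.98 and 7.06 in LMEC_0h. Lung was higher without overlap, by 1.65-fold (adjusted p = 4.03e-09), though its mean stayed under the table's median. In culture Lama5 read 6.55, 6.40, 6.34 and 6.39 at 2 h and 6.37, 6.26, 6.26 and 6.27 at 42 h, with no call as deposited; after quantile normalization the 2 h value was lower by 0.17 on the log2 scale (adjusted p = 0.00903). Lama2, the alpha chain of muscle and mesenchymal basement membranes, read 6.28, 6.40, 6.28, 6.54 and 6.59 in LSEC_0h, 6.88, 6.45, 7.26 and 6.78 in LSEC_2h, 6.39, 6.27, 6.15 and 6.27 in LSEC_42h, and 7.90, 8.32, 7.61, 7.65 and 8.17 in LMEC_0h. Lung exceeded every other array, by 2.85-fold over LSEC_0h (adjusted p = 8.96e-08). The 1.34-fold higher Lama2 at 2 h (adjusted p = 0.0166) lost its call without LSEC_2h array 6, after quantile normalization (adjusted p = 0.14) and with array weights (adjusted p = 0.0637).

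Lamb3, the beta chain of an epithelial laminin, spread widely among the lung arrays. It read 8.55, 7.61, 9.69, 7.49 and 7.13 in LMEC_0h, 6.18, 6.12, 6.12, 6.17 and 6.18 in LSEC_0h, 6.46, 6.43, 6.52 and 6.54 in LSEC_2h, and 6.25, 6.09, 6.11 and 6.10 in LSEC_42h. All lung arrays were higher, at least 3.58-fold on average (adjusted p = 6.56e-05). The mean of 12 lung epithelial markers, such as the surfactant protein Sftpc, was 10.46, 9.72, 11.09, 9.52 and 9.35 on the same 5 lung arrays, in the same order as Lamb3, and 6.15 to 6.66 on the liver arrays. Of these markers, 11 of 12 were called higher in lung (background 19.8%) and none lower (background 27.7%). Their part in the results was not tested. Lama1 and Lama3 were dim, with means of 6.07 to 6.66.

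The fibrillar collagens marked the lung arrays. Type I and type III collagen, encoded by Col1a1, Col1a2 and Col3a1, form the thick fibrils of interstitial matrix, and type V collagen (Col5a1, Col5a2) starts these fibrils. Of the 10 fibrillar members, 6 were called higher in lung (background 19.8%) and none lower (background 27.7%). The 6 were Col1a1, Col1a2, Col3a1, Col5a1, Col5a2 and the dim Col24a1, whose LSEC_0h mean lay at the control level. The counts were the same after quantile normalization. Col1a1 read 6.28, 6.29, 6.50, 6.74 and 6.44 in LSEC_0h and 9.93, 9.84, 9.39, 8.19 and 9.99 in LMEC_0h, 8.09-fold higher in lung (adjusted p = 6.46e-08). Col1a2 read 6.42, 6.52, 6.64, 7.47 and 6.96 in LSEC_0h and 10.63, 10.49, 10.48, 9.23 and 10.72 in LMEC_0h, 11.4-fold higher (SE 0.37 on the log2 scale, adjusted p = 4.12e-07). Neither gene overlapped between the organs, and LMEC_0h array 21 was the lowest lung array for both.

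Col3a1 was already above the median in fresh liver cells. It read 8.01, 8.78, 8.62, 9.95 and 9.53 in LSEC_0h and 12.26, 11.82, 11.89, 10.90 and 12.15 in LMEC_0h, and was 7.09-fold higher in lung without overlap (adjusted p = 7.28e-05). Col5a1 read 6.51, 6.63, 6.44, 6.99 and 6.92 in LSEC_0h and 8.09, 8.32, 7.65, 7.69 and 8.10 in LMEC_0h, 2.42-fold higher (adjusted p = 1.28e-05). Col5a2 read 9.82, 9.19, 8.84, 10.29 and 10.16 in LSEC_0h and 11.46, 11.48, 11.17, 11.35 and 11.23 in LMEC_0h, 3.20-fold higher (adjusted p = 5.33e-05). For both type V genes every lung array exceeded every liver array.

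In culture, 7 of the 10 fibrillar members were called higher at 2 h (background 41.4%) and none lower. The 7 were Col1a1, Col1a2 and the dim Col2a1, Col5a3, Col11a1, Col11a2 and Col24a1. Of these, Col2a1 and Col11a1 lay at the control level in both groups. Without dim genes, 2 of 5 were called higher, as were 1842 of the 6796 genes kept. At 42 h, Col3a1 alone was called lower (background 20.8%) and none was called higher. Col3a1 read 9.99, 8.59, 11.33 and 8.75 at 2 h, spread around the fresh values with array 6 highest, and 6.40, 6.12, 6.30 and 7.36 at 42 h, below every fresh array. It was 5.39-fold lower at 42 h than in LSEC_0h (SE 0.49 on the log2 scale, adjusted p = 0.000512) and 8.69-fold lower than at 2 h (adjusted p = 4.78e-05), with no call at 2 h against LSEC_0h (adjusted p = 0.217). Col1a2 read 7.84, 7.26, 9.31 and 7.32 at 2 h and 6.68, 6.28, 6.24 and 7.43 at 42 h. The 2 h arrays ran from within the fresh range to well above it, and the 42 h arrays overlapped the fresh range. Col1a2 was 2.19-fold higher at 2 h (adjusted p = 0.0152), a call lost without array 6 (adjusted p = 0.0791 at that setting).

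Col1a1 read 7.03, 6.81, 7.92 and 7.03 at 2 h and 6.44, 6.23, 6.25 and 6.61 at 42 h. Every 2 h array exceeded every fresh array, by 1.68-fold on average (adjusted p = 0.0287), and the call was lost without LSEC_2h array 6, without LSEC_0h array 13 or 14, and after quantile normalization. Col5a1 read 6.97, 6.71, 7.77 and 6.88 at 2 h and 6.50, 6.92, 6.74 and 6.66 at 42 h, and Col5a2 read 9.75, 8.63, 10.09 and 9.69 at 2 h and 9.23, 9.07, 9.62 and 9.46 at 42 h. Both overlapped the fresh arrays at both times and were not called. The count of 7 fibrillar members called higher at 2 h, beside 41.4% of all genes as deposited, became 5 without array 6 and 4 after quantile normalization. After quantile normalization 6973 of the 11018 genes were called, 48.0% of them higher. The share of all genes without array 6 is not given here. The remaining fibrillar members, Col2a1, Col5a3, Col11a1, Col11a2 and Col24a1, had means of 5.69 to 7.02 in every group. Col24a1, at the control level in LSEC_0h and LSEC_42h, was called higher at 2 h, at least 1.70-fold over each.

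**Figure D3:**
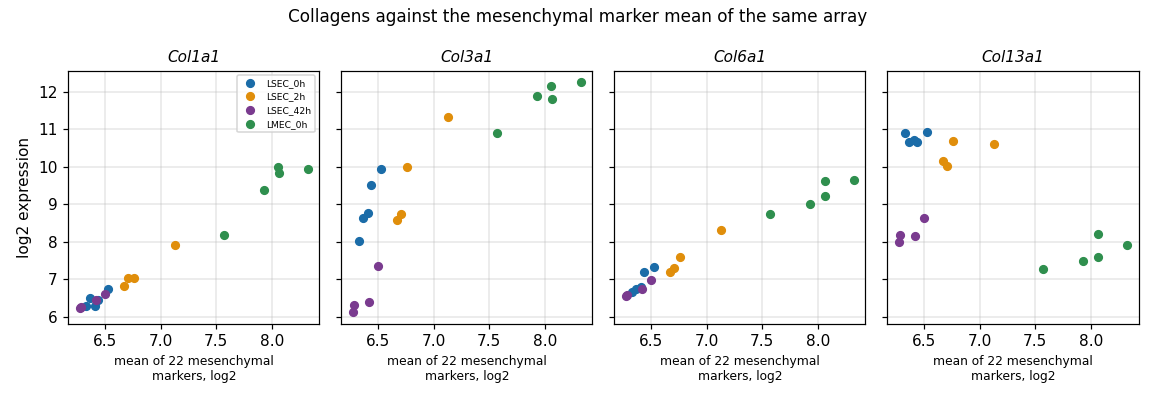
Log2 expression (y axis) of Col1a1, Col3a1, Col6a1 and Col13a1 against the mean log2 expression of 22 mesenchymal markers of the same array (x axis), 1 point per array in the colour of its group. The marker mean was 7.57 to 8.33 in LMEC_0h and 6.27 to 7.13 in the LSEC groups; LSEC_2h array 6 is the rightmost LSEC point and is also the highest LSEC point for Col1a1, Col3a1 and Col6a1, whereas Col13a1 is highest in LSEC_0h and LSEC_2h.

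Markers of stellate cells, fibroblasts and smooth muscle were higher in lung, as were Col1a1, Col1a2, Col3a1, Col5a1 and Col5a2. The markers were also higher at 2 h, where Col1a1 and Col1a2 were called higher but Col3a1, Col5a1 and Col5a2 were not called. At 42 h Col3a1 was called lower than in LSEC_0h. For 11 of the 22 markers a fall could hardly be seen there, as they lay at the control level in LSEC_0h. The mean of 22 such genes, with no collagen among them, was 6.33 to 6.52 in LSEC_0h, 6.67 to 7.13 in LSEC_2h (array 6 highest), 6.27 to 6.50 in LSEC_42h (array 12 highest) and 7.57 to 8.33 in LMEC_0h (array 21 lowest). Of the 22, 17 were called higher and 3 lower in lung, where 19.8% and 27.7% of all genes were. At 2 h 13 were called higher and 1 lower, where 41.4% and 32.7% of all genes were. At 42 h against LSEC_0h 2 were called higher and 1 lower (median log2 difference -0.02), where 29.7% and 20.8% of all genes were. The marker counts were not repeated without dim genes. At the control level lay 11 in LSEC_0h, 1 in LSEC_2h, 12 in LSEC_42h and 2 in LMEC_0h. Of the defining genes, the smooth muscle and stellate cell filament gene Des averaged 6.41 in LSEC_0h and 7.84 in LMEC_0h, the pericyte receptor Pdgfrb 6.35 and 6.68, and the stellate cell retinol enzyme Lrat 6.87 and 6.23. The order of the 5 LSEC_0h arrays by Col3a1 was that of their marker means. The part of these cells in the collagen results was not tested.

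Type VI collagen, which forms beaded filaments around cells, gave the same organ difference. Col6a1 read 6.67, 6.80, 6.73, 7.31 and 7.20 in LSEC_0h and 9.64, 9.23, 9.02, 8.74 and 9.62 in LMEC_0h, 4.94-fold higher in lung (adjusted p = 5.84e-08). Col6a2 read 6.35, 6.41, 6.46, 6.91 and 6.67 in LSEC_0h and 9.08, 8.82, 8.58, 8.21 and 9.15 in LMEC_0h, 4.62-fold higher (adjusted p = 5.39e-09). Col6a3 read 6.25, 6.23, 6.24, 6.48 and 6.51 in LSEC_0h and 8.87, 8.43, 7.98, 7.74 and 8.66 in LMEC_0h, 3.99-fold higher (adjusted p = 1.78e-08). All 3 chains separated the organs without overlap and were lowest in lung array 21.

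In culture, Col6a1 read 7.60, 7.20, 8.31 and 7.30 at 2 h and 6.75, 6.55, 6.59 and 6.99 at 42 h. Col6a2 read 6.83, 6.61, 7.29 and 6.67 at 2 h and 6.38, 6.15, 6.27 and 6.51 at 42 h, and Col6a3 read 6.82, 6.57, 7.09 and 6.69 at 2 h and 6.34, 6.20, 6.29 and 6.47 at 42 h. Array 6 was the highest 2 h array for each. Col6a1 was 1.58-fold higher at 2 h (adjusted p = 0.0126) and Col6a3 1.37-fold higher (adjusted p = 0.0281), and both calls were lost without array 6; that of Col6a3 was also lost without any 1 of LSEC_0h arrays 13, 14 and 15 and LSEC_2h array 4, and after quantile normalization. At 42 h against 2 h, Col6a1 was 1.85-fold lower (adjusted p = 0.00274), and the smaller falls of Col6a2 and Col6a3 (1.44-fold and 1.38-fold) lost their calls without LSEC_2h array 6, without LSEC_42h array 2, after quantile normalization and with array weights, and that of Col6a3 also without LSEC_2h array 4 or LSEC_42h array 1 or 3. No type VI chain was called at 42 h against LSEC_0h. Of the other network collagens, Col7a1, Col8a1, Col10a1 and Col26a1 stayed below the table's median in every group mean. Col8a1, which forms sheets in vessel walls, was called higher in lung with a log2 difference of 0.55.

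Col13a1, a transmembrane collagen found at cell contacts, was far higher in fresh liver cells than in lung; Col22a1 was the other collagen called lower in lung, by 0.18 on the log2 scale. It read 10.90, 10.72, 10.66, 10.93 and 10.66 in LSEC_0h and 7.91, 7.59, 7.47, 7.27 and 8.21 in LMEC_0h. The organs were far apart, 8.47-fold lower in lung (SE 0.17 on the log2 scale, adjusted p = 7.47e-11). In culture it read 10.68, 10.17, 10.62 and 10.02 at 2 h and 8.16, 7.98, 8.17 and 8.63 at 42 h. The 2 h arrays reached into the fresh range, and the 42 h arrays lay below all other LSEC arrays and overlapped lung. Col13a1 was 5.79-fold lower at 42 h than in LSEC_0h (SE 0.18 on the log2 scale, adjusted p = 5.51e-09) and 4.39-fold lower than at 2 h (adjusted p = 4.81e-08). At 2 h the adjusted p was 0.0559, and it passed the threshold in the same direction in some other fits, such as that with only the 2 groups compared (0.0259) and that with array weights (0.00223). Of the hepatocyte and macrophage markers, 9 of 10 and 7 of 8 were also lower in lung, and all were lower at 42 h; their part in the values of Col13a1, and of Itga1 and Itga9, was not tested. The other transmembrane members, Col17a1 and Col23a1, had means of 6.10 to 6.92.

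Col15a1 had the largest fitted organ difference among the 62 members. It encodes a collagen that links basement membranes to the fibrils beneath. It read 6.37, 6.35, 6.32, 6.31 and 6.33 in LSEC_0h and 10.03, 10.51, 9.44, 10.23 and 9.96 in LMEC_0h. Liver arrays lay within a narrow band, and lung was 13.02-fold higher (SE 0.13 on the log2 scale, adjusted p = 1.32e-13). The lowest lung array was array 20 for Col15a1 and array 21 for the type I, III and VI genes. The mesenchymal marker mean was 7.93 on array 20 and 7.57 on array 21, against 8.33, 8.07 and 8.06 on arrays 18, 19 and 22. The part of mesenchymal cells in Col15a1 was not tested. In culture Col15a1 read 6.87, 6.73, 6.65 and 6.81 at 2 h and 6.49, 6.35, 6.42 and 6.52 at 42 h. The 1.35-fold rise at 2 h (adjusted p = 0.0089) lost its call after quantile normalization. Its relative Col18a1, the source of endostatin, had a mean of 6.73 ± 0.14 (SD, n = 5) in fresh liver cells and 7.68 ± 0.24 (SD, n = 5) in lung cells and was also called higher in lung.

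Among the fibril-associated collagens, which coat or interrupt fibrils, Col9a3 behaved unlike the others. It is a chain of a cartilage collagen. It read 5.85, 5.87, 5.81, 5.85 and 5.86 in LSEC_0h, 8.30, 8.18, 8.27 and 9.10 in LSEC_2h, 6.09, 5.86, 5.94 and 5.91 in LSEC_42h, and 5.76, 5.93, 5.73, 5.77 and 6.10 in LMEC_0h. The 2 h arrays alone rose above the control level, at least 4.62-fold higher than the fresh and the 42 h cells (adjusted p = 1.01e-10 and 3.77e-10). Its partner chains Col9a1 and Col9a2 were called higher at 2 h too. Col9a2 rose by 0.55 on the log2 scale, whereas Col9a1 lay at the control level in both groups, so no fold is given for it.

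Col14a1 and Col16a1 are fibril-associated collagens of connective tissue. Col14a1 read 6.50, 6.91, 6.76, 7.47 and 7.40 in LSEC_0h, 7.92, 7.15, 8.95 and 6.93 in LSEC_2h, 6.25, 6.04, 6.08 and 6.21 in LSEC_42h, and 7.72, 8.15, 7.94, 7.51 and 7.64 in LMEC_0h. The 42 h arrays were lowest without overlap, and the 2 h arrays spread from the fresh range upwards with array 6 at the top. It was at least 2.79-fold lower at 42 h than at 2 h (adjusted p = 0.000276). Its calls against LSEC_0h, 1.72-fold higher in lung (adjusted p = 0.031), 1.66-fold higher at 2 h (adjusted p = 0.0374) and at least 1.68-fold lower at 42 h (adjusted p = 0.0247), were each lost without any 1 of 4 or 5 single arrays; the 2 h call was also lost with array weights and with only the 2 groups in the fit, and its single arrays were LSEC_0h arrays 13, 14 and 15 and LSEC_2h arrays 4 and 6.

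Col16a1 read 6.60, 6.76, 6.66, 6.61 and 6.64 in LSEC_0h, 7.29, 7.37, 7.19 and 7.51 in LSEC_2h, 6.83, 6.68, 6.58 and 6.66 in LSEC_42h, and 7.96, 7.54, 8.21, 7.26 and 7.66 in LMEC_0h. Fresh and 42 h liver cells lay together, with 2 h and lung arrays above them. It was 2.11-fold higher in lung (adjusted p = 1.65e-06) and 1.61-fold higher at 2 h (adjusted p = 0.000199). All 7 fibril-associated members were called higher at 2 h (background 41.4% as deposited). The count was 6 without array 6 and 5 after quantile normalization, and none was called lower under either setting. After quantile normalization 6973 of the 11018 genes were called, 48.0% of them higher. Col12a1, another collagen of this kind, was called higher in lung, at least 1.74-fold over a liver mean at the control level, and averaged 7.05 there, and Col22a1 stayed between 6.36 and 6.81 in all group means.

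Among the integrin subunits, the laminin receptors were higher in lung. All 3 measured laminin-binding alpha subunits (Itga3, Itga6 and Itga7) were called higher in lung, where 19.8% of all genes were. So were all 3 beta subunits outside the leukocyte group (Itgb1, Itgb4 and Itgb6). Both counts held after quantile normalization. Itga7, a muscle laminin receptor, stayed under the table's median, with means of 6.29 to 6.73. Itga3, a receptor for laminins of epithelial and endothelial basement membranes, read 7.32, 7.28, 7.17, 7.30 and 7.08 in LSEC_0h, 7.42, 7.38, 7.20 and 7.28 in LSEC_2h, 7.53, 7.34, 7.11 and 7.24 in LSEC_42h, and 10.40, 10.37, 10.38, 10.27 and 10.29 in LMEC_0h. The 5 lung arrays lay close together, far above all LSEC arrays, and were 8.68-fold higher than LSEC_0h (SE 0.08 on the log2 scale, adjusted p = 1.3e-15). No culture comparison called Itga3 as deposited, but after quantile normalization it was called higher at 2 h, by 0.22 on the log2 scale (adjusted p = 0.0332). Its lung values spanned 10.27 to 10.40, while the epithelial marker means ran from 9.35 to 11.09 over the same arrays; the part of epithelial cells was not tested.

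Itga6, the other main laminin receptor, read 6.10, 6.13, 6.07, 6.13 and 5.94 in LSEC_0h, 6.17, 6.19, 6.17 and 6.20 in LSEC_2h, 6.09, 6.24, 6.19 and 6.01 in LSEC_42h, and 7.90, 7.67, 7.35, 7.49 and 7.36 in LMEC_0h. Liver cells stayed at the control level at every time, and lung was at least 2.46-fold higher (adjusted p = 9.82e-11). Itgb4, its partner in hemidesmosomes, read 6.17, 6.11, 6.21, 6.34 and 6.28 in LSEC_0h, 6.24, 6.15, 6.12 and 6.08 in LSEC_2h, 6.12, 6.13, 6.13 and 6.07 in LSEC_42h, and 7.94, 8.23, 7.56, 7.84 and 7.77 in LMEC_0h. It too was at the control level in liver cells, and lung was at least 3.06-fold higher without overlap (adjusted p = 3.4e-11). Both genes were highest in lung arrays 18 and 19. The epithelial marker means were 10.46, 9.72, 11.09, 9.52 and 9.35 on lung arrays 18, 19, 20, 21 and 22. The part of epithelial cells was not tested.

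Itgb6, an epithelial subunit known for activating TGF-beta, read 7.996, 7.11, 8.99, 6.93 and 6.94 in LMEC_0h and 6.48, 6.49, 6.27, 6.69 and 6.65 in LSEC_0h. Lung was 2.11-fold higher (adjusted p = 0.00412), led by arrays 20 and 18, the arrays with the highest epithelial marker means. In culture it read 6.73, 6.48, 6.71 and 6.72 at 2 h and 5.80, 6.03, 5.92 and 5.86 at 42 h, without overlap. At 42 h it was at least 1.32-fold lower than at 2 h (adjusted p = 0.038), a call lost after quantile normalization and without any 1 of 7 single arrays, namely LSEC_2h arrays 4, 6 and 7 and each LSEC_42h array.

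Itgb1, the common beta subunit, was bright everywhere and changed little. It read 10.57, 10.72, 10.60, 10.58 and 10.49 in LSEC_0h, 10.06, 10.36, 10.26 and 10.34 in LSEC_2h, 10.15, 10.18, 9.99 and 10.05 in LSEC_42h, and 10.99, 11.12, 10.96, 10.84 and 10.92 in LMEC_0h. Lung lay above fresh liver, and fresh liver above both cultured groups, each without overlap. Lung was 1.29-fold higher than liver (adjusted p = 0.00069), and Itgb1 was 1.27-fold lower at 2 h (adjusted p = 0.00121) and 1.41-fold lower at 42 h (adjusted p = 6.53e-05).

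Fresh liver cells had more of Itga1 and Itga9 than lung. Itga1, a collagen receptor with Itgb1, read 11.04, 11.27, 10.01, 10.86 and 11.22 in LSEC_0h, 10.90, 11.11, 10.61 and 11.14 in LSEC_2h, 10.61, 9.77, 9.26 and 9.96 in LSEC_42h, and 9.75, 9.73, 9.42, 9.61 and 10.02 in LMEC_0h. Array 15 was the lowest fresh liver array and overlapped lung; the other 4 lay above every lung array. Itga1 was 2.25-fold lower in lung (SE 0.24 on the log2 scale, adjusted p = 0.000573), not called at 2 h (adjusted p = 0.836), and 1.97-fold lower at 42 h than in LSEC_0h (SE 0.25, adjusted p = 0.00361). The other collagen-binding alpha subunit, Itga11, was dim, with means of 5.90 to 6.13.

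Itga9, which binds tenascin and the cellular form of fibronectin, read 8.85, 9.05, 8.88, 9.39 and 9.13 in LSEC_0h, 7.97, 7.73, 7.80 and 7.41 in LSEC_2h, 6.72, 6.32, 6.77 and 6.95 in LSEC_42h, and 7.29, 7.58, 7.12, 7.28 and 7.55 in LMEC_0h. The 3 LSEC groups were separate, highest when fresh and lowest at 42 h, and lung lay between the 42 h and the fresh values. Itga9 was 3.24-fold lower in lung (SE 0.13 on the log2 scale, adjusted p = 9.64e-09), 2.52-fold lower at 2 h (SE 0.14, adjusted p = 3.05e-07) and 5.17-fold lower at 42 h (SE 0.14, adjusted p = 6.16e-10). From 2 h to 42 h it fell by a further 2.05-fold (adjusted p = 1.12e-05).

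Itga5, the fibronectin receptor subunit, dropped early and stayed low. It read 8.67, 8.59, 8.36, 8.77 and 8.91 in LSEC_0h, 7.05, 7.05, 7.01 and 7.01 in LSEC_2h, 6.82, 6.91, 7.06 and 6.94 in LSEC_42h, and 8.78, 9.23, 8.72, 8.94 and 9.21 in LMEC_0h. The cultured arrays lay together, more than 1 log2 unit below every fresh array of either organ. It was 3.09-fold lower at 2 h (SE 0.11 on the log2 scale, adjusted p = 2.59e-09) and 3.31-fold lower at 42 h (SE 0.11, adjusted p = 2.09e-09). The 1.24-fold higher Itga5 in lung (adjusted p = 0.0224) lost its call without any 1 of LSEC_0h array 15 and LMEC_0h arrays 19 and 22.

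Itgav, the alpha subunit of the vitronectin receptors, stayed under the table's median. It read 6.41, 6.28, 6.47, 6.30 and 6.22 in LSEC_0h, 6.71, 7.05, 6.73 and 7.03 in LSEC_2h, 6.56, 6.30, 6.28 and 6.62 in LSEC_42h, and 6.71, 6.75, 6.85, 6.64 and 6.82 in LMEC_0h. The 2 h and lung arrays lay above the fresh liver arrays, and the 42 h arrays overlapped these. Itgav was 1.46-fold higher at 2 h (adjusted p = 2.9e-05) and 1.34-fold higher in lung (adjusted p = 0.000456). Its vascular partners Itgb3 and Itgb5 were not analysed here. Itga2b, the platelet subunit, and Itga8, the nephronectin receptor, were both called lower at 42 h than in LSEC_0h, by 0.54 and 0.53 on the log2 scale, and Itga2b was lower in lung by 0.31.

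**Figure D4:**
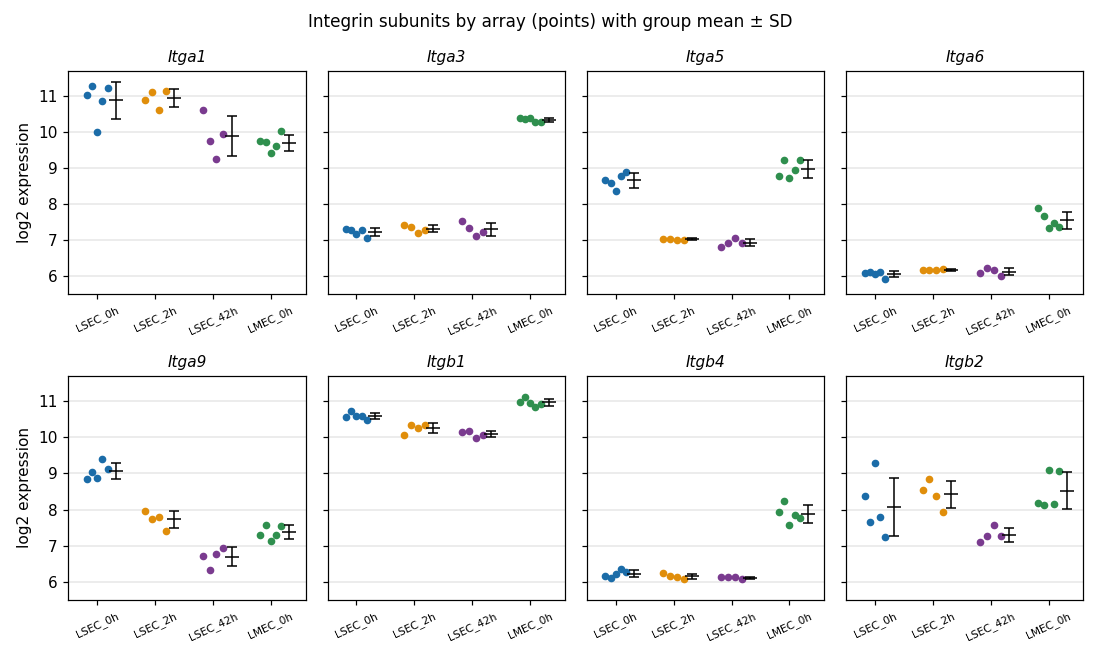
Log2 expression (y axis) of 8 integrin subunits in each array (points) by group, with the group mean ± SD beside the points (n = 5 for LSEC_0h and LMEC_0h, 4 for LSEC_2h and LSEC_42h). Itga3, Itga6 and Itgb4 were high in LMEC_0h alone, Itga9 fell at 2 h and again at 42 h, Itga5 fell at 2 h and stayed near 7, and Itgb2 spread widely among the fresh liver arrays.

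Itgb2, the beta subunit of leukocytes, did not pass the test between the organs (adjusted p = 0.241). It read 8.37, 7.65, 9.29, 7.78 and 7.23 in LSEC_0h, 8.54, 8.83, 8.38 and 7.94 in LSEC_2h, 7.10, 7.28, 7.57 and 7.28 in LSEC_42h, and 8.17, 8.12, 9.10, 8.16 and 9.06 in LMEC_0h. It was 2.17-fold lower at 42 h than at 2 h without overlap (adjusted p = 0.00848). The mean of 8 macrophage markers on the 5 LSEC_0h arrays was 9.94, 9.06, 11.03, 9.30 and 8.27, in the same order as Itgb2. It was 6.79 to 7.42 in LSEC_2h, 6.41 to 6.68 in LSEC_42h and 6.78 to 7.98 in LMEC_0h. The mean of 13 T, NK and B cell markers was 6.39 to 6.53 in LSEC_0h, 7.15 to 7.59 in LSEC_2h, 6.23 to 6.26 in LSEC_42h and 6.48 to 7.62 in LMEC_0h, where array 22 was highest. The mean of 6 neutrophil and monocyte markers was 6.31 to 6.70 in LSEC_0h, 6.50 to 6.60 in LSEC_2h and 6.36 to 7.06 in LSEC_42h. In LMEC_0h it was 7.16 to 8.53, and array 20 was highest. The part of leukocytes in these values was not tested. Of the other leukocyte subunits, Itgad, Itgam and Itgb7 were called higher at 2 h, by 0.88, 0.45 and 0.27 on the log2 scale, and lower again at 42 h than at 2 h.

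The genes matched by name include Itgb1bp1, whose protein binds the tail of Itgb1 and the vascular protein Krit1. It read 8.76, 8.81, 8.68, 8.75 and 8.73 in LSEC_0h, 7.99, 8.14, 8.02 and 8.08 in LSEC_2h, 9.04, 9.18, 8.999 and 9.15 in LSEC_42h, and 8.71, 8.65, 8.58, 8.78 and 8.26 in LMEC_0h. The 3 LSEC groups were tight and separate, lowest at 2 h and highest at 42 h. It was 1.61-fold lower at 2 h (adjusted p = 2.51e-06), 1.27-fold higher at 42 h (adjusted p = 0.00332), both against LSEC_0h, and 2.05-fold higher at 42 h than at 2 h (adjusted p = 4.99e-08).

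Itgb3bp, which also encodes a centromere protein, had a similar course. It read 7.13, 7.13, 7.15, 7.001 and 6.88 in LSEC_0h, 6.88, 6.51, 7.04 and 6.25 in LSEC_2h, 7.92, 8.48, 8.28 and 8.04 in LSEC_42h, and 6.63, 6.98, 6.65, 6.89 and 6.73 in LMEC_0h. Only the 42 h arrays stood clear of the rest. It was 2.18-fold higher at 42 h than in LSEC_0h (adjusted p = 3.93e-06) and 2.85-fold higher than at 2 h (adjusted p = 1.32e-07). The 1.31-fold lower value at 2 h (adjusted p = 0.0192) lost its call without LSEC_2h array 5 or 7. Itgbl1 and Itgb1bp2 were dim, with means of 5.63 to 6.61.

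The genes that act with these members were counted from lists chosen by function, and their counts stand beside the shares over all genes: 19.8% higher and 27.7% lower in lung, 41.4% and 32.7% at 2 h, and 29.7% and 20.8% at 42 h, with medians of -0.04, 0.08 and 0.05. Of 20 basement membrane partners, 9 were called higher and 6 lower in lung, with a median log2 difference of -0.05; the share of lower genes was near that of all genes. Postn (at least 7.46-fold), the fibronectin gene Fn1 (9.28-fold) and the fibulins Fbln5 (at least 7.54-fold) and Fbln2 (8.22-fold) were higher there. Emilin1 (11.1-fold), Tinagl1 (6.81-fold) and perlecan, Hspg2 (5.41-fold), were lower. In culture 7 rose and 9 fell at 2 h (median -0.35), and 3 rose and 8 fell at 42 h against LSEC_0h (median -0.01). Nid2, a nidogen that ties laminin to type IV collagen, was 3.08-fold higher at 2 h and 5.1-fold higher at 42 h, whereas Emilin1 was 5.63-fold and 9.68-fold lower, and Hspg2 and agrin (Agrn) were 5.61-fold and 5.1-fold lower at 42 h.

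Of 18 genes for collagen folding, modification and crosslinking, 8 were called higher and 4 lower in lung (median log2 difference 0.08), where 19.8% and 27.7% of all genes were. The crosslinking oxidases split: Loxl1 (5.39-fold) and Lox (at least 3.79-fold) were higher in lung and Loxl2 was 6.95-fold lower. At 2 h 13 of the 18 fell and 2 rose (median -0.68), where 32.7% of all genes fell and 41.4% rose. Serpinh1, the collagen chaperone of the endoplasmic reticulum, was 4.07-fold lower at 2 h and 2.45-fold higher at 42 h than at 2 h (adjusted p = 1.38e-07 and 4.13e-05). Its means were 10.92 ± 0.24 (SD, n = 5) in LSEC_0h, 8.90 ± 0.57 (SD, n = 4) at 2 h and 10.19 ± 0.25 (SD, n = 4) at 42 h. At 42 h against LSEC_0h, 10 fell and 2 rose (median -0.37; over all genes 20.8% fell and 29.7% rose), with Loxl2 5.89-fold lower and Fkbp10 2.55-fold higher.

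Of 13 other laminin and collagen receptors, 8 were called higher and 1 lower in lung (median log2 difference 0.29), among them Cd44 (6.34-fold) and the syndecan Sdc4 (6.29-fold). Cd151, a tetraspanin that associates with laminin-binding integrins, averaged 11.21 ± 0.05 (SD, n = 5) in LSEC_0h, 9.84 ± 0.45 (SD, n = 4) at 2 h and 11.39 ± 0.17 (SD, n = 4) at 42 h. It was 2.58-fold lower at 2 h (adjusted p = 5.69e-07) and 2.93-fold higher at 42 h than at 2 h (adjusted p = 2.74e-07). Of the whole list, 4 rose and 4 fell at 2 h and 3 rose and 3 fell at 42 h, shares near or under those of all genes (41.4% and 32.7% at 2 h, 29.7% and 20.8% at 42 h), with medians of 0.003 and -0.06.

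Of 30 adaptors that join integrins to the cytoskeleton, 9 were called higher and 11 lower in lung (19.8% and 27.7% of all genes; list median -0.05), led by Nedd9 (5.38-fold higher), Lims2 (5.13-fold higher) and the kindlin Fermt3 (3.63-fold lower). At 2 h 15 fell and 7 rose (32.7% and 41.4% of all genes; list median -0.47), and at 42 h 16 fell and 2 rose against LSEC_0h (20.8% and 29.7%; list median -0.38). Vasp, Fermt3 and the integrin-linked kinase gene Ilk were 3.18-fold, 3.07-fold and 2.93-fold lower at 2 h, and Ilk was 2.19-fold higher at 42 h than at 2 h. Of the 8 macrophage markers, 7 were also lower in lung and 7 at 2 h, and their part in the values of Fermt3 was not tested. The talin gene Tln1, whose protein activates integrins, was 2.66-fold lower at 42 h than in LSEC_0h (adjusted p = 4.08e-09).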

How the data were processed

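The authors deposited 1 log2 value per probe set and array, from cRNA labelled with biotin, per the labels' protocols. How they corrected, normalized and summarised the signals is not given in the sources used here, and the log2 unit was read from the values. They were tested as deposited. The table holds 11484 probe sets, 57 of them controls and the other 11427 for genes. Symbols came from GEO's platform annotation, and 409 gene probe sets without one were left out. Array medians lay between 7.10 and 7.19. Arrays hold no counts, so their number limits the precision.

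With limma 3.58.1 in R 4.3.3, all 18 arrays were fitted together, each group having its own mean and the prior variance following the intensity. The two-sided tests were adjusted by Benjamini-Hochberg over 11018 genes, and called at an adjusted p under 0.05. The fit was also run on simulated data, and the outcome is not reported here. Remaining steps used Python 3.11.15, pandas 2.3.3 and scipy 1.17.1.

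The members and lists were chosen with earlier results of these data known. Values in every array are given for 34 members: those called in at least 1 comparison, at least 2-fold apart, with groups that did not overlap and the higher mean above the table's median, and a set of basement membrane chains and their receptors. From each function list, up to 4 called genes with the largest difference in each direction could be named. Lamb2, Itgb3 and Itgb5 were in that set and were not analysed here.

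Alternatives were quantile normalization, leaving out dim probe sets (6796 genes were kept, each exceeding the median of 4 or more arrays), array weights, a constant prior variance, a fit of only the 2 groups compared, adjustment over all gene probe sets, and leaving out each array, LMEC_0h arrays 19 and 22, or LSEC_2h array 6 with LSEC_0h array 15 and LMEC_0h array 20. The within-array difference of Col4a1 and Col4a2, and counts by role without LSEC_2h array 6, were added after the values were seen.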

Additional observations from a re-analysis of the deposited data

Results flagged for a closer look

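Among 136 sets of arrays of 1 gene in 1 group, 7 held an array whose gap to the nearest of the others took an unusually large share of the range, a result chance gives in about 1 set in 20. Of these, 2 lay in bright genes of fresh cells. Col1a2 in LMEC_0h array 21 was lowest at 9.23, where the other 4 lung arrays read 10.48 to 10.72, and the mesenchymal marker mean was lowest on the same array. Lama4 in LSEC_0h array 15 was lowest at 9.68, where the others read 10.03 to 10.15, and macrophage markers were highest on that array. Col9a3 in LSEC_2h array 7 was highest at 9.10, where the others read 8.18 to 8.30.

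The remaining 4 were small gaps in dim values. Lama5 in LSEC_42h array 1 was highest at 6.37 (others 6.26 to 6.27), Lamb3 in the same array was highest at 6.25 (others 6.09 to 6.11), Itgb4 in LSEC_42h array 12 was lowest at 6.07 (others 6.12 to 6.13), and Itgb6 in LSEC_2h array 5 was lowest at 6.48 (others 6.71 to 6.73).

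For 3 genes the changes against fresh liver cells at 2 h and at 42 h were both called, with opposite signs, and the cultured groups differed from each other in limma. The log2 difference of 42 h minus 2 h was -1.59 for Col14a1 (adjusted p = 0.000276), 1.51 for Itgb3bp (adjusted p = 1.32e-07) and 1.03 for Itgb1bp1 (adjusted p = 4.99e-08). All arrays at 42 h lay below those at 2 h for Col14a1 and above them for Itgb3bp and Itgb1bp1. When single arrays were left out, Col14a1 lost its call against LSEC_0h in 5 fits at 2 h and in 4 at 42 h. Itgb3bp lost its 2 h call without LSEC_2h array 5 or 7. Both calls of Itgb1bp1 held whichever array was left out.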

How the results depend on the processing

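Leaving out dim probe sets lowered the count of members called higher in lung from 33 to 21, higher at 2 h from 32 to 11, higher at 42 h from 5 to 2, and lower at 42 h than at 2 h from 38 to 18, since it keeps 36 of the 62 members. Quantile normalization lowered the count higher at 2 h to 20 and higher at 42 h to 3. The latter count was 9 with only the 2 groups compared in the fit, 9 with array weights, and 2 to 7 when single arrays were left out. At 2 h the share of member calls that were higher was 78.0% as deposited, 62.5% after quantile normalization and 55.0% without dim probe sets, and over all genes 55.9%, 48.0% and 36.1%. For 42 h against 2 h that share over all genes was 46.0%, 53.4% and 64.8%, and without dim probe sets the median of all genes moved from -0.08 to 0.22 (at 2 h against LSEC_0h from 0.08 to -0.22). Under quantile normalization Lama5 at 2 h turned from 0.04, not called, to -0.17 with an adjusted p of 0.00903; the cause was not tested. Of the 81 calls made as deposited for the 34 members, 73 held after quantile normalization, 76 with array weights and 79 with only the 2 groups in the fit. More were lost without LSEC_2h array 6, 10 of 82, and without that array, LSEC_0h array 15 and LMEC_0h array 20 together, 11 of 83; these totals also hold the within-array tests of Col4a1 against Col4a2. No call turned to the opposite direction under any of these. Without LSEC_2h array 6, LSEC_0h array 15 and LMEC_0h array 20 the within-array test of Col4a1 against Col4a2 at 2 h gave p = 0.0571 in an exact permutation test, the smallest the remaining arrays allow. No paired analysis was possible because no replicate number is shared between groups. Signals near 6.26 cannot be told from the control level, which limits every statement on the 25 members under the median.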
